A study of Mus musculus with 90 samples.

Results

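Relapse tumours, which had regrown under an antibody against PD-L1 after shrinking, were compared with Responder tumours, which were shrinking under the same antibody. The members were chosen by their treatment label: 6 arrays labelled Relapse and 27 labelled Responder, 33 of the 90 arrays of the study. Every tumour was a melanoma allograft grown under the skin, in the strain B6.cBrd and with the genotype Hgftg;Cdk4R24C/R24C, that is an Hgf transgene and the R24C form of Cdk4 on both copies. The labels do not say whether that genotype is that of the tumour, the host or both, nor which promoter drives the transgene or how many tumours of origin the allografts came from. Both groups received the antibody, an antibody of the mouse IgG1 class carrying D265A, at a labelled 10 mg/kg. Responder tumours had lost at least 5% of their volume and were taken after 2 to 12 doses. Relapse tumours had become too small to measure and then grew back, and were taken after 4 to 10 doses. NonResponder tumours (23 arrays), which kept growing under the antibody, are used below to place the levels. Their arrays, like all 90, were also part of the main fit and its estimate of spread. The number of doses was not given for each tumour, so that time under treatment and relapse cannot be told apart.

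PD-L1, encoded by Cd274, is a surface protein that binds the receptor PD-1 on T cells and dampens their response, and antibodies against it are given to release that brake. T cells that recognise a tumour secrete interferon gamma, which acts through its receptor and Jak kinases to raise antigen presentation, interferon-induced GTPases and PD-L1 itself. Loss of T cells, of antigen presentation or of pigment cell identity are among the changes that melanomas growing back under such antibodies have been examined for.

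The deposited values are log2 probe set intensities after RMA (robust multi-array average). The sample titles begin with a number shared by many samples, whose meaning the labels do not give, and samples that share it are called a title series. Relapse arrays 1 to 3 belong to the larger title series (53 arrays, 17 of them Responder) and Relapse arrays 4 to 6 to the smaller one (25 arrays, 10 of them Responder). The numbers follow the order of deposition and pair nothing, and the labels do not say that each array is a separate mouse, so p-values measure the spread between these samples. Array medians lay between 5.71 and 5.9. In 4 of the 90 arrays the mean correlation with all other arrays was under 0.95, none of them a Relapse array, and 2 of them were Responder arrays (20 and 21, both of the smaller series). NonResponder array 14, of the larger series, was another of the 4. Over all probe sets other than controls, the Relapse arrays correlated with one another at 0.978 to 0.994 (median 0.988 over 15 pairs). Their correlation with Responder arrays had a median of 0.985 over 162 pairs. Melanocyte transcripts bore out the labelled tissue. In the Relapse arrays Dct, an enzyme of pigment synthesis, lay between 14.24 and 14.36, and Pmel, the fibril protein of pigment granules, between 10.82 and 12.7. Tyr, the first enzyme of pigment synthesis, was low in every Relapse array (3.51 to 3.64) and every Responder array (3.38 to 3.76). Responder arrays 20 and 21 were the lowest of the 27 in melanocyte transcripts, with Dct down to 9.99 in that group.

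No gene passed the threshold between Relapse and Responder tumours. Of 18193 genes, 0 (0%) had an adjusted p under 0.05 in limma, which fits 1 linear model per gene with Benjamini-Hochberg adjustment, and the smallest adjusted p was 0.307. At an unadjusted p under 0.05 there were 803 genes (4.41%), of which 365 were higher (2.01%) and 438 lower (2.41%) in Relapse. No gene had Relapse arrays that all lay above or all below the 27 Responder arrays (0 of 18193, 0%). Without the 4 arrays of low correlation the count stayed 0, with 914 genes at an unadjusted p under 0.05 and a smallest adjusted p of 0.374. With limma fitted to the Relapse and Responder arrays alone it was also 0. There, 1042 genes had an unadjusted p under 0.05, and the smallest adjusted p was 0.849. The differences themselves were small: their median size was 0.084 on the log2 scale and 95% were under 0.29. The 95% interval of 17721 genes (97.4%) lay inside a 2-fold change in either direction, and its median half-width was 0.21. A change beyond 2-fold therefore lay outside the interval for most genes, but not for many of the variable immune and tissue genes described below.

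**Figure D1:**
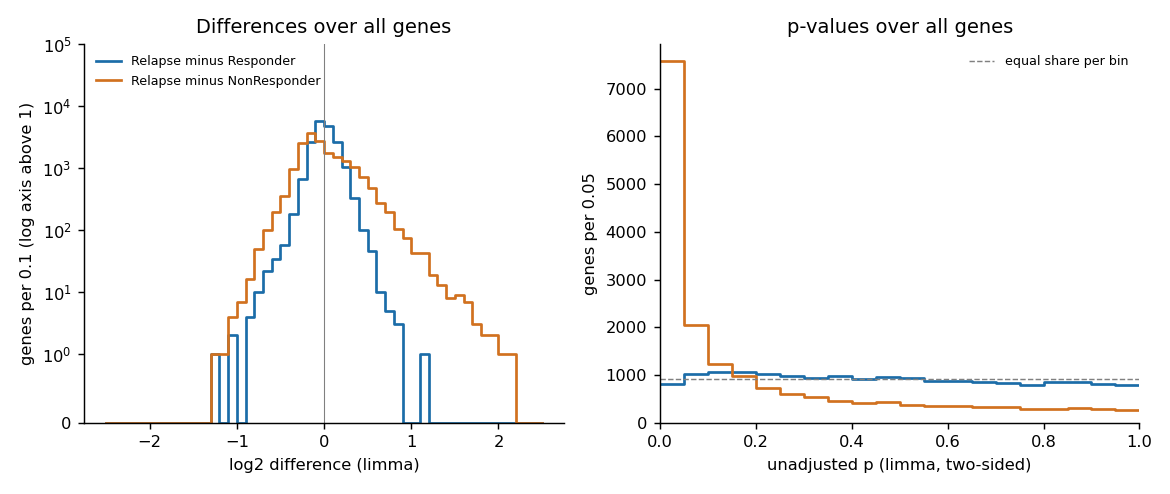
Left, the number of genes at each log2 difference (bins of 0.1, count axis logarithmic above 1) for Relapse minus Responder and for Relapse minus NonResponder over 18193 genes. Right, the number of genes at each unadjusted p from limma in bins of 0.05, with a dashed line at an equal share per bin: 803 genes lie in the first bin for Relapse against Responder, fewer than the equal share.

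The 20 genes with the smallest p that kept their direction in both title series and without the arrays of low correlation differed by fractions of a log2 unit. All of them missed the threshold. The smallest p belonged to Itga3, an integrin subunit that binds laminin. Its values in Relapse arrays 1 to 6 were 6.16, 6.12, 6.17, 6.35, 6.21 and 6 on the log2 scale, against 6.17, 6.42 and 6.77 as the lowest, median and highest Responder arrays. All 6 Relapse arrays were below the Responder median, but 2 lay within the Responder range. The difference was -0.28 ± 0.06 (SE; 95% interval -0.41 to -0.16; limma adjusted p = 0.307), with -0.25 and -0.32 in the larger and smaller title series. With the mean of the gene's 3 probe sets in place of the brightest, the difference was -0.096 (adjusted p = 0.952). An exact permutation test over all 326040 relabelings within the title series, two-sided and unadjusted, gave p = 0.000141. Itga3 was named for its small p in these same arrays, so the permutation p is not independent of that choice.

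The other 9 genes on the lower side were Smpd5 (-0.33), a sphingomyelinase; Pax4 (-0.24), Sox15 (-0.30) and Lbx2 (-0.23), which encode transcription factors; Acad12 (-0.33), Pde4a (-0.29), a phosphodiesterase of cyclic AMP, Cd209e (-0.31), a lectin, Mal (-0.22) and Tff2 (-0.24), a trefoil factor. Each had a limma adjusted p of 0.909. These 10 were dim genes, with Responder medians of 3.48 to 6.62. The 10 on the higher side were brighter, with Responder medians of 6.93 to 10.14. They were Iah1 (0.35), an esterase, Tmco3 (0.36), Leng1 (0.33), Dnttip1 (0.33), a subunit of a histone deacetylase complex, and Fcsk (0.33), a fucose kinase. With them came Stk24 (0.30), a protein kinase, Zfp64 (0.27), a zinc finger protein, Bysl (0.26), a ribosome assembly factor, Ttl (0.21), the tubulin tyrosine ligase, and Fam207a (0.20), again with adjusted p values of 0.909. The mean of all probe sets of a gene gave 0.094 for Ttl, 0.110 for Zfp64, 0.168 for Stk24 and 0.202 for Iah1. It gave 0.236 for Fcsk, 0.242 for Dnttip1, 0.254 for Bysl and 0.268 for Tmco3, and left Leng1 and Fam207a unchanged. Iah1 stood at 9.72, 10.1, 10.12, 10.34, 10.6 and 10.28 in Relapse arrays 1 to 6, and the highest Responder array stood at 10.24, so that 3 of the 6 exceeded every Responder array.

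Only 4 of 18193 genes (0.022%) differed by more than 2-fold, and none of them passed. They are named because of that size, after their values were seen. Ubd encodes a small protein that tags others for the proteasome and is induced by inflammatory cytokines. It differed by -1.25 ± 0.64 (SE; 95% interval -2.52 to 0.01). Clec4e, a receptor of myeloid cells for microbial glycolipids and dead cells, differed by -1.01 ± 0.43 (-1.87 to -0.16), and Gzmb, a granzyme of killer cells, by -1 ± 0.50 (-1.99 to -0.02). Car3, a carbonic anhydrase of muscle and fat, differed by 1.11 ± 1.26 (-1.41 to 3.62), with Relapse values from 6.63 to 13.51 and Responder values from 4.13 to 14.24. Adipocyte and muscle transcripts, which also varied over several log2 units among the arrays of both groups, are given below, and their part in the Car3 value was not tested.

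Genes of killer cells were on the low side throughout, without passing. Of 15 measured genes of the list for cytotoxic T cells and natural killer cells, 0 were called and all 15 were below 0, with a median difference of -0.49, beside -0.00 over all genes. In bulk tissue, fewer such cells and less RNA per cell cannot be told apart. Gzmb stood at 11.06 in Relapse array 1 and at 8.26, 8.16, 8.92, 9.11 and 8.73 in arrays 2 to 6, against a lowest, median and highest Responder array of 7.83, 10.25 and 11.74. Only Relapse array 1 was above the Responder median, and all 6 lay within the Responder range of both title series together. Within the smaller series, Relapse arrays 4 to 6 all lay below its lowest Responder array, at 9.4. The share of all genes that do so was not counted. Gzma, another granzyme, lay between 8.08 and 8.83 in Relapse, against a Responder median of 8.86 and a range of 7.15 to 12.06. Its difference was -0.85 ± 0.39 (limma unadjusted p = 0.0326, adjusted p = 0.909), and the larger series alone gave -0.06, the smaller -1.82. Ifng, which encodes interferon gamma, was at 7.22, 4.73, 4.86, 6.17, 5.74 and 6.1 in Relapse arrays 1 to 6, with a Responder median of 6.61 (range 4.2 to 8.25). It differed by -0.85 ± 0.41 (adjusted p = 0.909), with -0.58 in the larger and -1.23 in the smaller series. Gzmk, which encodes granzyme K, differed by -0.76 ± 0.42. Without the arrays of low correlation the median of the list was -0.40. Responder array 20, one of those arrays, was the highest of the 27 for the cytotoxic, T cell receptor and class II lists, at 8.71, 9.59 and 12.14.

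T cell receptor genes lay closer to the Responder level. All 14 measured genes were below 0 with a median of -0.24, which came to -0.08 without the arrays of low correlation. Cd3d, one of the signalling chains of the receptor, stood at 9.68, 8.28, 7.71, 9.29, 8.52 and 9.48 in Relapse arrays 1 to 6, against a Responder median of 9.3 and a range of 6.45 to 11.95. Relapse arrays 1 and 6 were above that median. The difference was -0.63 ± 0.44 for Cd3d, -0.61 ± 0.36 for the coreceptor Cd8a and -0.27 ± 0.26 for Cd3e, all with adjusted p values between 0.909 and 0.916. Per array, the mean log2 value of the cytotoxic list was 8.14 in Relapse array 1, between 6.47 and 7.41 in the other 5, and 7.9 in the median Responder array. That of the T cell receptor list was 7.76 in array 1, 6.46 and 6.29 in arrays 2 and 3, and 7.33, 6.68 and 7.4 in arrays 4 to 6, with a Responder median of 7.3. All 6 values of both lists lay within the Responder range of both title series together. Within the smaller series, the cytotoxic list of Relapse array 5 (6.94) was under the lowest Responder array, at 7.23.

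**Figure D2:**
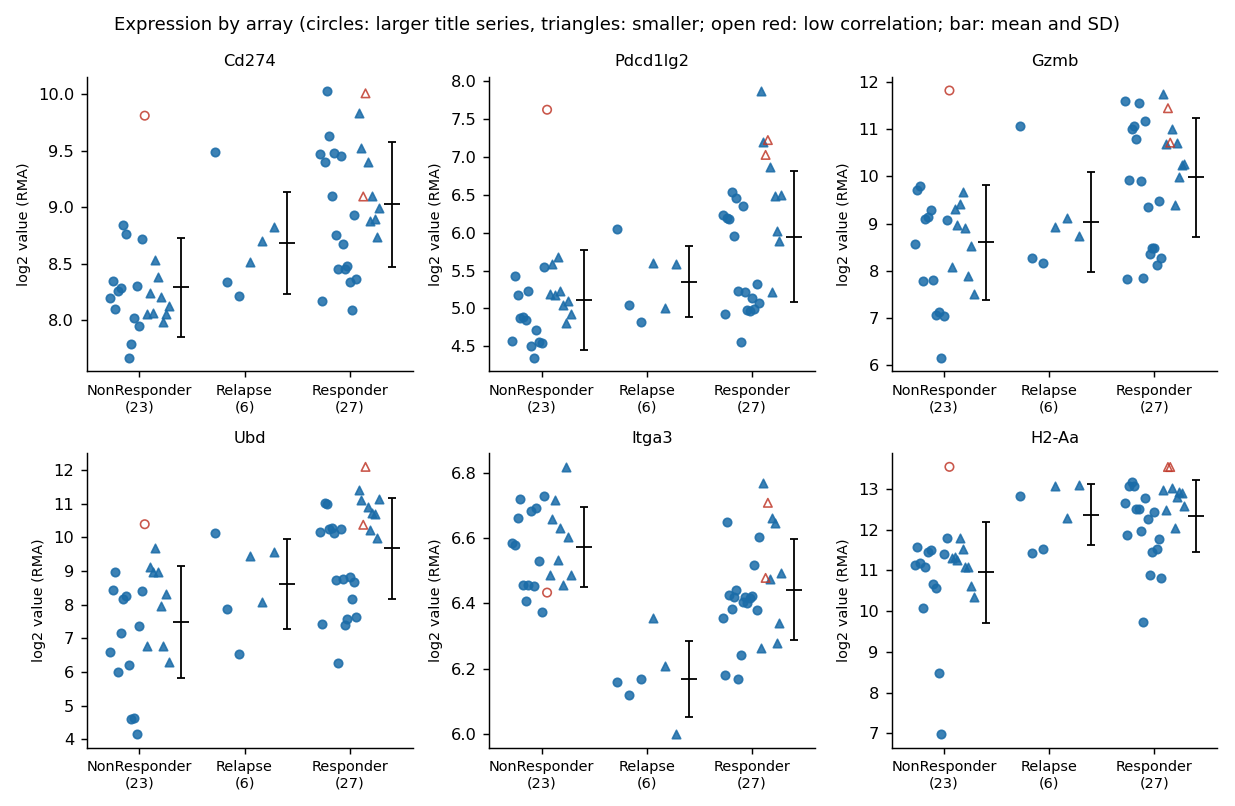
The log2 value of 6 genes in each NonResponder (23), Relapse (6) and Responder (27) array, with circles for the larger and triangles for the smaller title series, open red symbols for arrays of low correlation, and black bars for the mean and SD. Relapse arrays of Cd274, Gzmb and Ubd lie within the Responder range of both series together, though not all within that of the smaller series. Those of Itga3 lie below the Responder median of 6.42, and those of H2-Aa lie between 11.42 and 13.08.

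Cd274, which encodes the antibody's target, Pdcd1lg2 and Pdcd1 were also on the low side. Cd274 stood at 9.48 in Relapse array 1 and at 8.33, 8.21, 8.52, 8.7 and 8.82 in arrays 2 to 6. The Responder arrays of both title series together ran from 8.09 over a median of 8.99 to 10.03. Only Relapse array 1 was above that median, and all 6 were within that range. Within the smaller series, Relapse arrays 4 and 5 lay under the lowest Responder array, at 8.73. The difference was -0.36 ± 0.20 (SE; 95% interval -0.75 to 0.03; limma adjusted p = 0.909; exact permutation p = 0.112, two-sided), or -0.22 and -0.56 within the larger and smaller series. Pdcd1lg2, the second ligand of PD-1, was at 6.06, 5.04, 4.83, 5.6, 5 and 5.59 in Relapse arrays 1 to 6 against a Responder median of 6.02 (4.55 to 7.88). It differed by -0.67 ± 0.27 (-1.21 to -0.13; limma unadjusted p = 0.0151, adjusted p = 0.909; exact permutation p = 0.0365). The list that held both of these genes also held Cd80, which differed by only -0.03. Pdcd1, the receptor, was highest in Relapse array 1 at 7.38 and lowest in arrays 2 and 3 at 5.6, with a Responder median of 6.54. Its difference was -0.54 ± 0.34 (-1.22 to 0.14; adjusted p = 0.909).

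Other inhibitory receptors and regulatory T cell genes were split. Of 13 measured, 0 were called, 3 were above and 10 below 0, and the median was -0.10. Lag3, an inhibitory receptor that binds class II molecules, differed by -0.38 ± 0.27, and Ctla4, which competes with the costimulatory receptor Cd28, by -0.29 ± 0.22. Ikzf2, a transcription factor of regulatory T cells, differed by 0.08 ± 0.14 (95% interval -0.20 to 0.37), so that a 2-fold change lay outside its interval.

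Of 20 interferon gamma response genes measured, 0 were called, 6 were above and 14 below 0, and the median was -0.06. The interval of 17 of the 20 lay inside a 2-fold change. Ubd was at 10.11, 7.86, 6.54, 9.43, 8.09 and 9.57 in Relapse arrays 1 to 6. Over both title series together, all 6 were below the Responder median of 10.22 and within the Responder range of 6.25 to 12.09. Within each series, arrays 1 to 3 lay inside the Responder range of the larger one. Arrays 4 to 6 lay below the lowest Responder array of the smaller one, at 9.97. The adjusted p of Ubd was 0.909, and its difference lay between -1.83 and -0.79 over the 31 alternative settings. The receptor chain Ifngr1 differed by -0.25 ± 0.18. The GTPases Igtp and Irgm2, which act at vacuoles that hold pathogens, differed by -0.02 ± 0.24 (-0.50 to 0.47) and 0.11 ± 0.21 (-0.31 to 0.53). Igtp stood at 12.8 in Relapse array 1 and between 11.57 and 12.37 in the others, around a Responder median of 12.03. The signs of the Igtp and Irgm2 differences depend on the setting.

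The promoters of Igtp and Irgm2 are shown because each carries both interferon motifs searched for. They are 100 bases up to the start of each gene in RefSeq's build GRCm38.p6, on the plus strand of chromosome 11, at chr11:58199456-58199555 and chr11:58214877-58214976. Capitals mark the GAS motif (TTCNNNGAA, the gamma-activated sequence) and the ISRE motif (GAAA, 2 bases of any kind, GAAA, bound by interferon regulatory factors), both sought on either strand.
Igtp: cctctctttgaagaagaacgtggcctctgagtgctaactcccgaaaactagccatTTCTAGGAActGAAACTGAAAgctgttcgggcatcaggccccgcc
Irgm2: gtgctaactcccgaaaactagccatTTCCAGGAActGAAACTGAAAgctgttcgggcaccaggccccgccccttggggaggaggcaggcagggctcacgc
In both, 2 bases separate the GAS from the ISRE match, and the 21 bases from the first to the last capital are the same at 20 positions. The pair of matches begins 45 bases before the start of Igtp and 75 before that of Irgm2. In windows from 250 bases before to 50 after the start, the ISRE motif occurred in 7 of 17 genes of the interferon gamma list with a promoter in the table (41.2%) and in 3.99% of all 27025 genes. For GAS the shares were 5 of 17 (29.4%) and 9.55%. A match describes letters in that window and not a bound site.

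Genes of the type I interferon response, which shares the ISRE motif, lay slightly above the Responder level. All 13 measured were above 0 with a median of 0.21 (0.10 without the arrays of low correlation), 0 were called, and all 13 intervals lay inside a 2-fold change. The antiviral 2-5A synthetases Oas1a and Oas2 differed by 0.24 ± 0.13 and 0.28 ± 0.18, and the related Oasl2 by 0.27 ± 0.22. For Oas1a, Relapse arrays 1 to 6 stood at 11.53, 11.58, 11.3, 11.6, 11.73 and 11.41, against a Responder median of 11.4 and a range of 10.08 to 11.74. In 5 of the 6 it was above that median.

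No difference in antigen presentation was detectable. Of 13 class I presentation genes 0 were called, the median was 0.01 and all 13 intervals excluded a 2-fold change. Nlrc5, which drives transcription of class I genes, stood at 11.62, 10.84, 10.54, 11.18, 10.99 and 11.34 in Relapse arrays 1 to 6, against a Responder median of 10.89 (10.3 to 11.47). The difference was 0.14 ± 0.17 (-0.19 to 0.48; limma adjusted p = 0.923), with a sign that turned in 1 setting. Tap2, a subunit of the peptide transporter that loads class I molecules, differed by 0.09 ± 0.25 (-0.42 to 0.60), and by -0.034 without Relapse array 1. For class II, with 8 genes measured and 0 called, the median was -0.07 and 3 of 8 intervals lay inside a 2-fold change. H2-Aa, a class II chain, was at 12.81, 11.42, 11.51, 13.07, 12.29 and 13.08 in Relapse arrays 1 to 6, with arrays 1, 4 and 6 above the Responder median of 12.51 and the other 3 below it. It differed by -0.06 ± 0.43 (-0.91 to 0.79), and the sign depends on the setting.

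Macrophage genes centred on the Responder level (18 measured, 0 called, 5 above and 13 below 0, median -0.07). Mertk, a receptor for dying cells, differed by -0.39 ± 0.24 and Gpnmb, a glycoprotein that macrophages share with pigment cells, by 0.23 ± 0.14. Genes of neutrophils and inflammatory monocytes were all on the low side (12 of 12 below 0, 0 called, median -0.40), with a median of -0.86 in the smaller title series and 0.05 in the larger one. Il1b, an inflammatory cytokine, stood at 6.18, 5.67, 6.29, 6.08, 6.02 and 5.96 in Relapse arrays 1 to 6, while Responder arrays ran from 5.37 over 6.27 to 8.96. Its difference was -0.57 ± 0.25 (limma unadjusted p = 0.0226, adjusted p = 0.909; exact permutation p = 0.0731). The neutrophil chemokine Cxcl2 differed by -0.80 ± 0.56. The alarmin S100a9 also differed by -0.80 (SE 0.58), with 0.22 and -2.03 in the larger and smaller series, so that the sign differs between them. In Relapse array 2 the mean log2 value of the neutrophil list was 4.84, just under the lowest Responder array at 4.86.

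Pigment cell genes lay above the Responder level, by less without the arrays of low correlation. Of 16 measured, 15 were above 0 and 0 were called, with a median of 0.43 that came to 0.14 without those arrays. Per array, the mean log2 value of the list was 9.33, 9.85, 9.62, 9.44, 9.68 and 9.53 in Relapse arrays 1 to 6. In Responder arrays 20 and 21 it was 6.76 and 6.66, and in the other 25 it ran from 8.93 to 9.78. Slc45a2, a melanosome transporter, differed by 0.76 ± 0.43 with all arrays and by 0.32 without those of low correlation. For Sox10, the neural crest factor of melanocytes, these differences were 0.58 ± 0.36 and 0.25, and for the melanocortin receptor Mc1r 0.66 ± 0.42 and 0.22. In the promoter windows, the M-box core CATGTG occurred in 6 of 10 genes of this list with a promoter in the table (60%) and in 15.9% of all genes.

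Driver genes were also closer to the Responder level without these arrays. Hgf, the transgene's gene, lay between 11.17 and 11.98 in the Relapse arrays, with a Responder median of 11.63 and a lowest Responder array at 5.63. The difference was 0.61 ± 0.43 (95% interval -0.24 to 1.46; limma adjusted p = 0.909), and 0.18 without the arrays of low correlation. Its receptor Met differed by 0.41 ± 0.29, and by 0.11 without them. Cdk4, the knock-in gene, was at 11.24, 11.61, 11.31, 10.92, 11.29 and 11.06 around a Responder median of 11.23, with a difference of 0.16 ± 0.15 (-0.14 to 0.45), and 0.04 without the arrays of low correlation. Its partner Ccnd1 differed by 0.22 ± 0.17. Of the 10 genes of this pathway 0 were called.

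Proliferation genes were 16 of 17 above 0 with 0 called and a median of 0.16, or 0.05 without the arrays of low correlation, and all 17 intervals lay inside a 2-fold change. The replication helicase subunit Mcm5 differed by 0.26 ± 0.14, the mitotic kinase Plk1 by 0.31 ± 0.19 and the proliferation marker Mki67 by 0.26 ± 0.20. Mki67 lay between 10.9 and 11.22 in Relapse and all 6 arrays were above the Responder median of 10.88, within a Responder range of 9.63 to 11.44. Genes of dedifferentiated melanoma had a median of 0.07 (14 measured, 0 called, 10 above 0), all with intervals inside a 2-fold change. Snai2, a factor of neural crest migration, differed by 0.22 ± 0.13 and the receptor kinase Axl by 0.19 ± 0.22. Axl was at 11.59 in Relapse array 1 and between 10.2 and 10.7 in the other 5, against a Responder median of 10.58.

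Hypoxia and glycolysis genes were 13 of 13 at or below 0, with 0 called and a median of -0.15 (-0.17 and -0.08 within the larger and smaller series). Bnip3, a mitophagy receptor induced by low oxygen, stood at 11.62, 10.87, 12.04, 10.91, 11.67 and 11.55 in Relapse arrays 1 to 6. Of these, 5 were below the Responder median of 11.93, and arrays 2 and 4 fell under the lowest Responder array at 10.97. The difference was -0.55 ± 0.26 (limma unadjusted p = 0.0352, adjusted p = 0.909; exact permutation p = 0.0151). Egln3, an oxygen-sensing hydroxylase, differed by -0.45 ± 0.40. Arrays 2 and 4 were also those with the most skeletal muscle RNA, as given below, and the part of muscle in the Bnip3 value was not tested. Oxidative phosphorylation genes had a median of 0.02 (15 measured, 0 called), with Uqcrc1, a subunit of complex III, at 0.21 ± 0.10 (unadjusted p = 0.0449). Among 11 Wnt pathway genes, 0 were called and the stem cell receptor Lgr5 differed by -0.17 ± 0.07 (unadjusted p = 0.0153, adjusted p = 0.909) at a dim Responder median of 4.69.

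Of 18 fibroblast and matrix genes 17 were above 0 and 0 were called, with a median of 0.33, or 0.69 and -0.10 in the larger and smaller series. Only 4 of their 18 intervals lay inside a 2-fold change. Col1a1, the main chain of collagen I, was at 11.06, 8.93, 12.09, 11.48, 9.91 and 10.57 in Relapse arrays 1 to 6, against 7.21, 9.94 and 13.21 as the lowest, median and highest Responder arrays. It differed by 0.48 ± 0.60 (-0.71 to 1.68) and Col6a2, a collagen VI chain, by 0.41 ± 0.52. TGF-beta pathway genes had a median of 0.03 (13 measured, 0 called), with Ltbp1, which stores latent TGF-beta in the matrix, at 0.18 ± 0.21. Vessel genes had a median of -0.04 (14 measured, 0 called), with the endothelial TGF-beta coreceptor Eng at 0.22 ± 0.15. Cpa3, a mast cell protease, differed by 0.40 ± 0.26 and was highest in Relapse arrays 4 and 6, at 6.83 and 7.53.

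Transcripts of muscle, fat and lymph node lists were high in some arrays of both groups, and the tissue they came from was not tested. The mean log2 value of the 14 skeletal muscle genes was 9.63 in Relapse array 2 and 8.42 in array 4, between 5.07 and 5.56 in the other 4, and 5.18 in the median Responder array, with a range of 4.83 to 12.92. The list's median difference was 0.98 in the larger and -1.21 in the smaller series, with 0 of 14 genes called. Adipocyte genes were high in Relapse arrays 4 and 6, at 8.73 and 9.4, between 5.47 and 6.72 in the others, and 6.14 in the median Responder array (range 5.36 to 10.53). Their hormone gene Adipoq ran from 4.55 to 12.7 in Relapse and differed by 0.87 ± 0.96. The lymph node stroma list was measured by Cxcl13, Madcam1, Ltb, Glycam1 and Fcer2a, without Ccl19 and Ccl21a. Among Relapse arrays it was high in array 6 alone, at 7.75 against 5.33 to 5.94 in the other 5. B cell and plasma cell genes were highest in that array too, at 8.31 against 6.49 to 7.44. Among Responder arrays the highest lymph node, B cell and adipocyte values were those of array 20 (9.8, 11 and 10.53), and the highest muscle and matrix values were those of array 21 (12.92 and 12.55). Whether lymph node tissue, fat or muscle contributed to the T cell, class II or matrix values of these arrays was not tested. Keratinocyte genes stayed dim, between 4.37 and 4.64 in Relapse arrays.

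**Figure D3:**
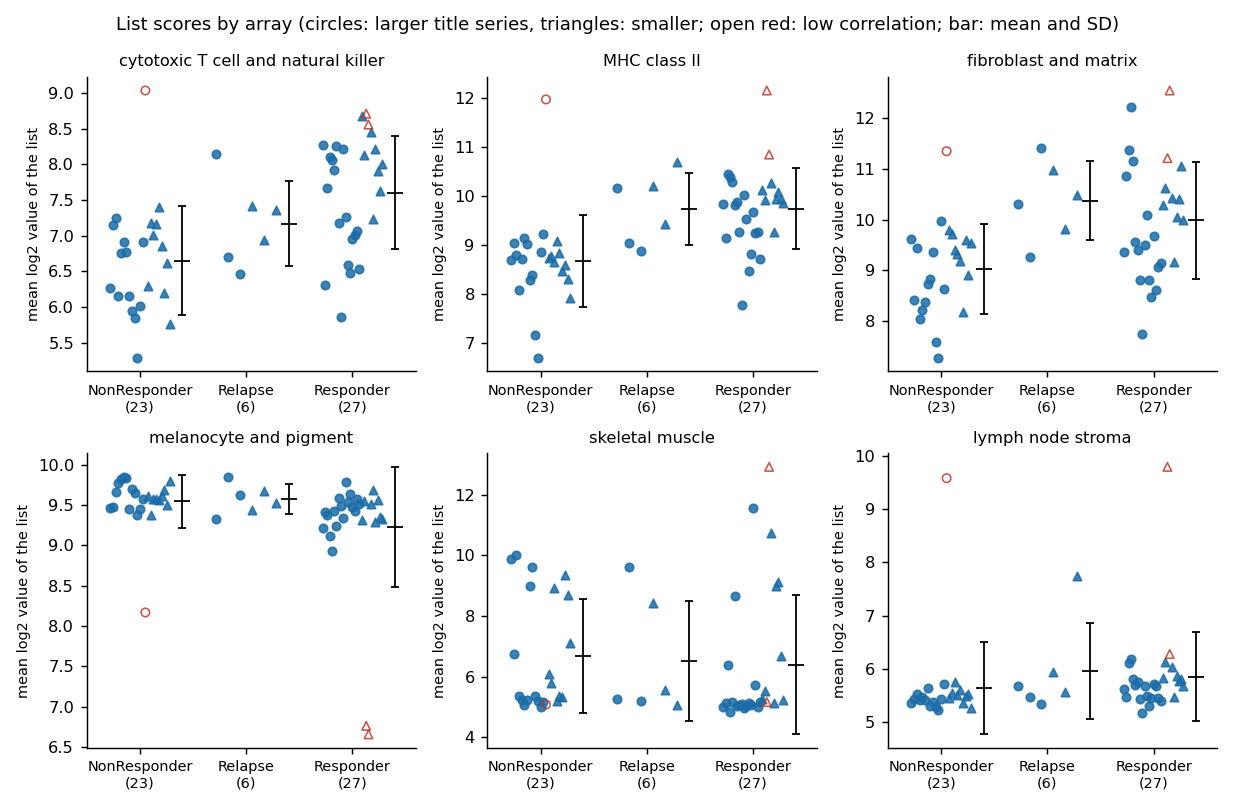
The mean log2 value of 6 gene lists in each NonResponder (23), Relapse (6) and Responder (27) array, with circles for the larger and triangles for the smaller title series, open red symbols for arrays of low correlation, and black bars for the mean and SD. Responder arrays 20 and 21 stand apart at 6.76 and 6.66 for melanocyte genes, Relapse arrays 2 and 4 are high for muscle at 9.63 and 8.42, and Relapse array 6 is high for lymph node stroma at 7.75.

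An interaction term tested the difference between the 2 title series in Relapse minus Responder. Of 18193 genes 0 (0%) passed, 481 had an unadjusted p under 0.05, and the smallest limma adjusted p was 0.999. Fitted alone, the larger series gave 0 called genes (142 at an unadjusted p under 0.05) and the smaller one 0 (1202). The medians of several lists still lay apart. For cytotoxic genes they were -0.17 in the larger and -0.88 in the smaller series, for T cell receptor genes -0.12 and -0.53, and for melanocyte genes 0.12 and 0.68. Each series holds only 3 Relapse arrays. Both Responder arrays of low correlation belong to the smaller series.

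**Figure D4:**
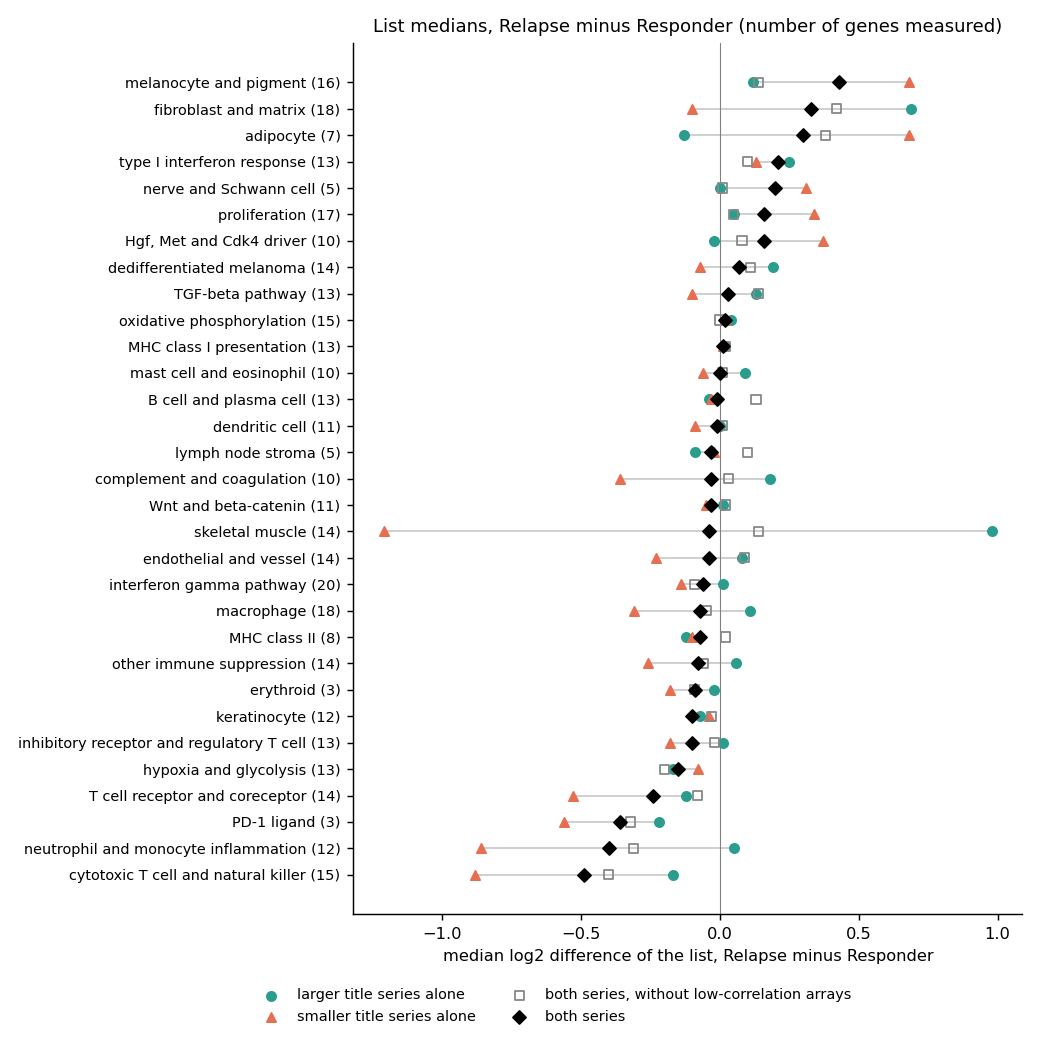
For each of 31 gene lists (number of genes measured in brackets), the median log2 difference Relapse minus Responder with both series (black diamonds), without the arrays of low correlation (open squares), and within the larger (green circles) and smaller (orange triangles) title series alone. Cytotoxic genes lie lowest at -0.49 and melanocyte genes highest at 0.43, and the series lie farthest apart for skeletal muscle (0.98 and -1.21).

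Against NonResponder tumours, used here to place the levels, the same 6 arrays differed for many genes. The 2 comparisons share the Relapse arrays, so their values are given side by side only. Genes named below include up to 4 per list with the smallest p against NonResponder, so those p-values also picked them. Of 18193 genes 3697 were called (20.3%), 1533 higher (8.43%) and 2164 lower (11.9%), and of these 87 and 5 changed by more than 2-fold. The count depended on single arrays: it was 1359 without Relapse array 1, 785 without array 4, 1139 without array 5 and 557 without array 6, and 7279 (40%; 3157 or 17.4% higher, 4122 or 22.7% lower) without the arrays of low correlation. In 7 genes (0.0385%) the Relapse and NonResponder arrays did not overlap. Within the larger series alone 0 genes passed, with 1731 at an unadjusted p under 0.05. That series holds NonResponder array 14, of low correlation, whose class II list mean was 11.96, beside a NonResponder median of 8.71. The series was not fitted against NonResponder without that array, so its part in that count was not tested. Median centring moved the median of all genes from -0.06 to -0.18 and the split from 1533 higher and 2164 lower to 797 and 6552. With quantile normalization it was 333 and 994, and among genes with a mean of at least 6 it was 1415 and 681.

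In class II, where the Relapse minus Responder median was -0.07, the median against NonResponder was 1.19 and 5 of 8 genes were higher (0 to 6 when each Relapse array was left out in turn, and 8 without the arrays of low correlation). H2-Aa differed by 1.35 ± 0.43 (limma adjusted p = 0.0291), from a NonResponder median of 11.17. Class I genes had medians of 0.01 and 0.38 in the 2 comparisons, with 6 of 13 higher than in NonResponder (1 to 8, and 10 without the arrays of low correlation). Nlrc5 was 1.67-fold higher (0.74 ± 0.17, adjusted p = 0.00575), and Tap2 1.92-fold (0.94 ± 0.26, adjusted p = 0.0151). Of the interferon gamma genes 9 of 20 were higher (0 to 8, and 14 likewise), among them Irgm2 (0.73 ± 0.21, adjusted p = 0.02) and Igtp (0.79 ± 0.25, adjusted p = 0.0259). The matrix list had medians of 0.33 and 1.30, with 10 of 18 higher (0 to 16, and 18 likewise) and Col1a1 at 1.93 ± 0.61 (adjusted p = 0.027) and Col6a2 at 1.68 ± 0.53 (adjusted p = 0.0264). Macrophage genes had medians of -0.07 and 0.57, with 5 of 18 higher (0 to 7, and 8 likewise, with 1 lower), and the complement subunit C1qa at 0.92 ± 0.31 (adjusted p = 0.0331). Axl, Ltbp1 and Ikzf2 were higher by 0.91 ± 0.23 (adjusted p = 0.00909), 0.91 ± 0.21 (0.00612) and 0.59 ± 0.14 (0.00897), and Oasl2 by 0.77 ± 0.22 (0.0174). Itga3 fell by 0.41 (SE 0.06, adjusted p = 8.83e-05) against a NonResponder median of 6.58. The mean of its probe sets, which gave a smaller Itga3 difference from Responder, was not run against NonResponder. Within the larger title series alone, which includes NonResponder array 14, all 14 named genes that passed against NonResponder lost the call. Besides that, 9 lost it without Relapse array 6, 8 without array 1, 6 without array 4, 3 without array 3, 1 without array 5 and 6 within the smaller series alone, while Axl, Itga3, Ltbp1 and Nlrc5 lost it in no further setting run.

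Cytotoxic genes had a median of -0.49 against Responder and 0.54 against NonResponder, and 0 of 15 passed in either comparison with all arrays. Without the arrays of low correlation 4 of 15 were higher than in NonResponder. Gzmb differed from NonResponder by 0.38 ± 0.50 (adjusted p = 0.559), and Ubd by 0.96 ± 0.65 (adjusted p = 0.239). Cd3g, like Cd3d a signalling chain of the receptor, was higher by 1.59 ± 0.54 (adjusted p = 0.0351), and 3 of 14 T cell receptor genes were higher and 1 lower (0 to 3 higher when each Relapse array was left out, and 11 higher and 1 lower without the arrays of low correlation). Cd274 stood above NonResponder by 0.38 ± 0.20 and Pdcd1 by 0.65 ± 0.35, without passing (adjusted p = 0.133 and 0.14). Without those arrays both passed, with adjusted p values of 0.0381 and 0.0302. Hgf (0.35 ± 0.43, adjusted p = 0.534) and Cdk4 (-0.18 ± 0.15, adjusted p = 0.337) did not pass with all arrays.

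**Figure D5:**
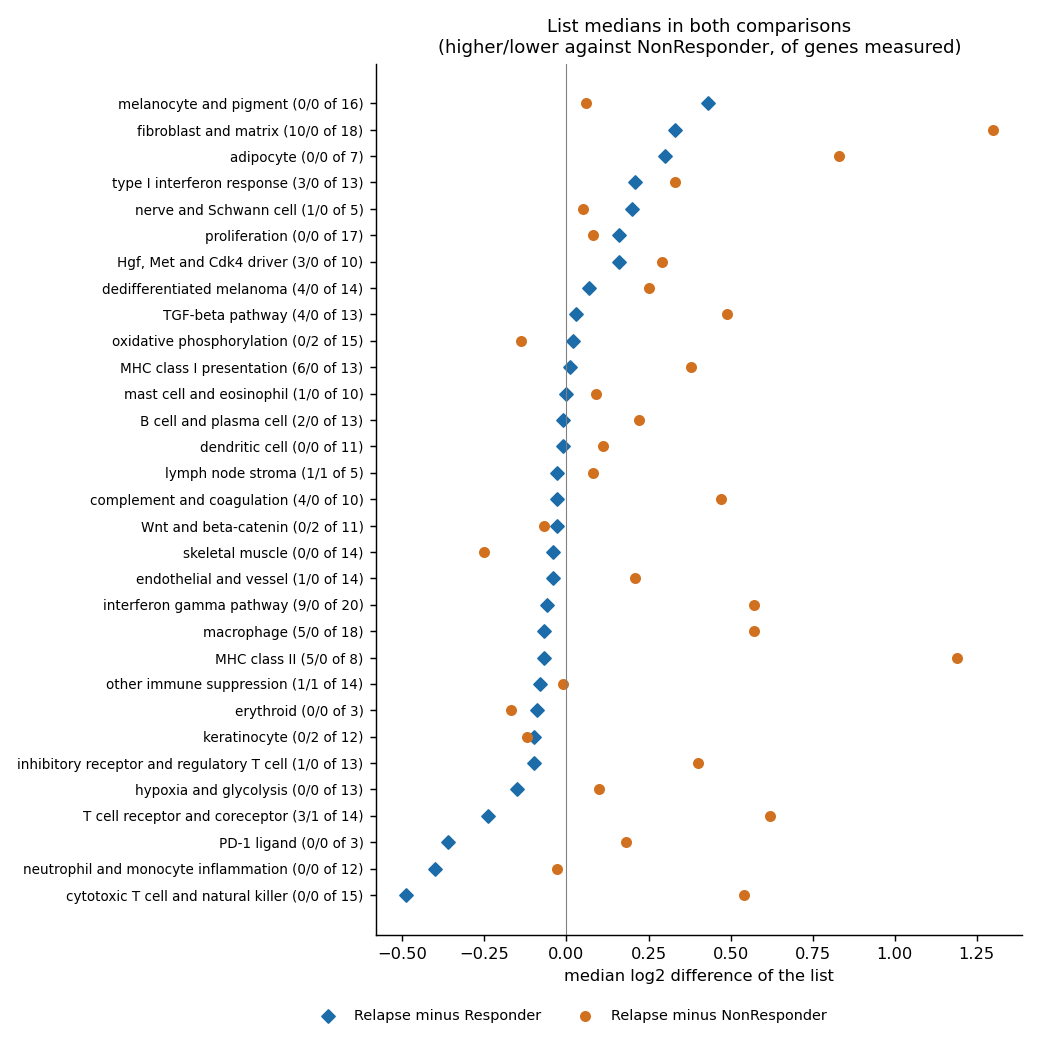
For each of 31 gene lists, the median log2 difference of the Relapse tumours from Responder (blue diamonds) and from NonResponder tumours (orange circles), 2 comparisons that share the Relapse arrays. Brackets give how many genes were called higher and lower against NonResponder, of those measured. Class II (-0.07 and 1.19) and matrix genes (0.33 and 1.30) lie far apart, and cytotoxic genes lie on either side of 0 (-0.49 and 0.54).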

How the data were processed

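Whole-tumour RNA of 90 samples was measured on 1 Affymetrix array each. The deposited values are log2 probe set intensities; RMA and limma are named in the submitters' processing notes, with versions and RMA's grouping of arrays not given in the sources used here. Of 45101 probe sets, 34945 carry 1 gene symbol in the platform annotation, 932 several and 9160 none, and 64 are controls. Each of 18193 genes was read from its brightest probe set on average, 9010 of which had a choice. With limma 3.58.1 in R 4.3.3, all 90 arrays were fitted with group and title series as terms, and p-values were adjusted by Benjamini-Hochberg over all genes (threshold 0.05). The number of arrays limits the precision. The fit was tested on simulated data. Named genes were the 10 with the largest called change in each direction that kept their sign in both title series and without low-correlation arrays, with places left filled by smallest p (unnamed transcripts skipped). To these came Cd274, Pdcd1, Hgf and Cdk4, and up to 4 genes per list of smallest p against Responder. Up to 4 per list of smallest p against NonResponder were named too. In either comparison, the p-values reported for genes chosen by p also picked them, and the permutation test used the same arrays. The members, the 31 gene lists and the tests were chosen with earlier results of these data known. Promoters came from RefSeq.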

Additional observations from a re-analysis of the deposited data

Results flagged for a closer look

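Among 108 sets of 6 Relapse values tested for a sample far from the others, 3 had a gap above Dixon's 95% critical value of 0.625 of the range. Chance flags about 1 in 20 such sets. Gzmb stood at 11.06 in Relapse array 1 and between 8.16 and 9.11 in the other 5 (gap 0.673 of the range). Axl stood at 11.59 in the same array and between 10.2 and 10.7 in the others (0.64). The lymph node stroma value was 7.75 in Relapse array 6 and between 5.33 and 5.94 in the others (0.747).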

How the results depend on the processing

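Relapse against Responder gave 0 called genes under 30 of the 31 other settings, and 5 lower genes with array weights, whose fit stopped before convergence (Itga3, Sox15, Snx6, 2310016G11Rik and 4930556L07Rik, named after their values were seen). Of 75 genes named, 68 kept their direction in every setting run. Among the other 7, H2-Aa turned to 0.004 without low-correlation arrays (0.004 also with only genes of mean at least 6, 0.018 with quantile normalization and 0.103 in the smaller series, all without those arrays), 0.026 with no title series term and 0.044 with array weights. Igtp turned to 0.003 with no title series term, 0.024 with Stabilization counted as Responder and 0.057 in the larger series, and S100a9 to 0.219 in the larger series. Cdk4 turned to -0.072 and Irgm2 to -0.027 in the smaller series without low-correlation arrays. Leaving out each Relapse array, with or without those arrays, gave -0.220 to 0.136 for H2-Aa, -0.230 to 0.070 for Igtp, -0.024 to 0.195 for Cdk4, -0.040 to 0.205 for Irgm2, -0.010 to 0.245 for Nlrc5 and -0.034 to 0.258 for Tap2. The cause was not tested. Against NonResponder, 3697 calls became 7279 without low-correlation arrays, 7349 with median centring, 1327 with quantile normalization, 2096 among genes of mean at least 6, 10409 with array weights, 0 in the larger and 542 in the smaller series, and 557 to 4064 without single Relapse arrays; Gzmb ran from -0.094 to 0.515 there. Of 278 values of the 20 genes named there, 50 lost the call and 6 gained it. Settings that pair 2 choices, and those that leave out Responder array 20 or 21, were added after seeing the data. So were those against NonResponder, except the setting without low-correlation arrays. No paired analysis was possible because the replicate numbers follow the order of deposition and are not in the labels.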
